A study of Mus musculus with 8 samples.

Results

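Acetylation of histone H3 at lysine 27 (H3K27ac), which sits on promoters and enhancers in use, was examined at 10 genes that mark macrophages: the complement C1q chains C1qa, C1qb and C1qc, the lineage receptor and factor Csf1r and Spi1, the marker genes Adgre1, Cd68 and Mrc1, and the lipid-handling genes Trem2 and Apoe. The 10 genes, of 21938 protein-coding genes in the annotation, were listed by name and were chosen with the peak coverage of these same tumors already known. Their differences between groups are therefore given as a description, with no test. Each gene was measured by the H3K27ac peaks in a window made of its body plus 50 kb either side. The windows of the 3 C1q genes overlap and hold the same peaks, so the 10 genes form 8 separate loci.

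The samples were 4 breast tumors of Balb/c mice in which the MMTV promoter drives the polyoma middle T oncogene (PyMT) and in which the Rag1 knockout removes the host's own T and B cells. All hosts were given wild-type CD4+ T cells when 4 weeks old, and tumors were taken at terminal size. The 2 control tumors came from PyMT;Rag1KO mice. The 2 test tumors came from K14-TSLPtg;PyMT;Rag1KO mice, in which the keratin 14 promoter also drives the cytokine TSLP. The titles call the test samples cysts and the control samples tumors, and the labels do not say whether tumors of a group came from separate litters or batches. The numbers 1 and 2 only name a tumor.

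Macrophages arise and persist through CSF1R, the receptor for CSF1 and IL-34, and through PU.1, the transcription factor that Spi1 encodes and that opens myeloid enhancers. Mature tissue macrophages secrete C1q, the recognition unit of the classical complement pathway, which also tags dying cells for uptake. In breast tumors, macrophages that express C1q, TREM2 and apolipoprotein E form a well known population, and CD206, the product of Mrc1, marks another set of states.

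Peak lists held 69861 and 67850 intervals in control tumors 1 and 2, and 65763 and 59762 in test tumors 1 and 2. The intervals covered 73.12, 67.85, 72.96 and 64.35 Mb in that order, so test tumor 2 had the fewest peaks and the least covered length. Values for 4 tumors are given below in the same order. Of the 14792 genes with a peak within 10 kb of their start in any tumor, the median gene was covered over 9.35%, 9.68%, 10.1% and 9.06% of those bases. Read depth is not known from the lists and no signal height was given, so a wider or additional peak is the only form of "more" that can be measured here. The tumors are bulk tissue, so fewer macrophages and less acetylation per macrophage cannot be told apart.

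The 3 C1q genes had the largest differences of the members in window coverage and in coverage within 10 kb of the start. Their cluster, chr4:136880129-136898803 on mm10 (18675 bp from the first to the last annotated base), lay in peaks over 51.8% and 36.9% of its bases in the control tumors and over 24.8% and 11.6% in the test tumors. In base pairs these were 9675, 6887, 4637 and 2161. Both control tumors thus stood above both test tumors, and each group was spread widely. Outside the cluster, the shared window held a single peak of 199 bp, in control tumor 1, just upstream of C1qa.

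**Figure D1:**
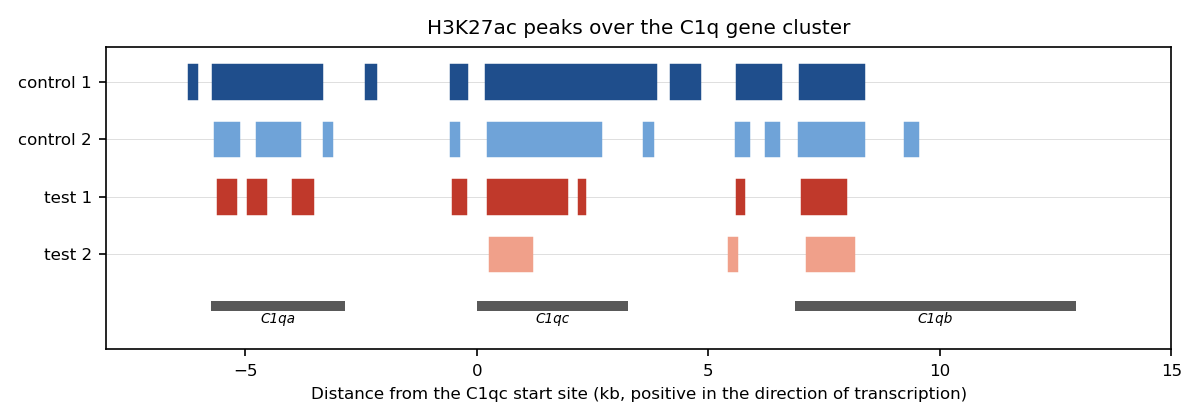
H3K27ac peaks of the 4 tumors (coloured blocks, 1 row per tumor) over the C1q gene cluster, by distance in kb from the C1qc start site, with gene bodies as grey bars. The block over C1qc narrows from 3692 bp in control tumor 1 to 919 bp in test tumor 2, and no block lies over C1qa in test tumor 2.

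C1qc, which encodes the C chain, had its widest peak over the gene body: 3692 bp in control tumor 1, 2466 bp in control tumor 2, 1733 bp in test tumor 1 and 919 bp in test tumor 2. The peak in control tumor 1 was wider than 96.0% of that tumor's peaks, and the peak in test tumor 2 was wider than 60.4% of its own. In control tumor 1 it was merged from 3 peaks of the caller. The joined region held 3 caller peaks in control tumor 2 and in test tumor 1 as well, but in 2 intervals. Its covered length was 3692, 2698, 1899 and 919 bp. Within 10 kb of the C1qc start, 49.4%, 34.4%, 23.2% and 10.8% of bases were covered, a mean of 41.9% ± 10.6 (SD, n = 2) in control and 17.0% ± 8.75 (SD, n = 2) in test tumors. The groups did not overlap.

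C1qa, which encodes the A chain, was covered over 82.02%, 58.0% and 44.5% of its body in the first 3 tumors and over 0% in test tumor 2. Its main region, chr4:136896415-136898782, spans exonic sequence and held 2368, 1500, 1286 and 0 bp of peaks. Test tumor 2 was thus the one tumor with no peak at the gene, and its nearest peak downstream began 6011 bp from the start site.

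C1qb, which encodes the B chain, kept a peak in all 4 tumors. The region at its 5′ end, chr4:136884706-136886126, held 1388, 1421, 976 and 1044 bp. A second region just upstream, chr4:136886494-136887644, held 967, 595, 177 and 198 bp. In both, each control tumor was wider than each test tumor, with a ratio of test to control width of 0.719 in the first and 0.240 in the second.

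The cluster and its flanks held 10 joined regions (peaks of any tumor that overlap, joined). Of these, 3 were present in all 4 tumors, and in each of the 3 both control tumors were wider than both test tumors. The median ratio of test to control width over the 3 was 0.441. Across the genome, 13.3% of the 34804 regions shared by all tumors had both control tumors wider and 19.1% had both test tumors wider, with a median ratio of 1.02. No C1q region was control-only, meaning present in both control tumors but absent from the 2 test tumors: the difference lay in width and in regions found in 1 to 3 tumors. Of the 10, 2 were in all but test tumor 2, and 5 were in 1 control tumor alone, with 175 to 637 bp each.

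No peak covered the 5′ end of a C1q gene in any tumor, although the peak of control tumor 1 reached the second annotated start of C1qc. The 5′ ends lay just upstream of peaks: for C1qc the next peaks were 182, 212, 220 and 273 bp downstream, and for C1qb 88, 61, 131 and 236 bp downstream. The promoter stretches beside these ends are shown for C1qb (chr4:136886201-136886450, minus strand) and C1qc (chr4:136893066-136893164, minus strand), 5′ to 3′ and ending just before the RefSeq start, from RefSeq on GRCm38.p6. Capitals mark letters that match PU.1 (GAGGAA), C/EBP (TTGCNNAA), AP-1 (TGANTCA) or RUNX (TGTGGTT) on either strand. The matches shown here and in the promoters given later do not overlap one another.
C1qb: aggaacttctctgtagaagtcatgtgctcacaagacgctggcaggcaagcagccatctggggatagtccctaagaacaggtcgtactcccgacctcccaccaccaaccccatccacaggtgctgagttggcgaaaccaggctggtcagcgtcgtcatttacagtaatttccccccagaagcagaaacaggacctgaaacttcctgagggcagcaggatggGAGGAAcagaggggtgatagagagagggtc
C1qc: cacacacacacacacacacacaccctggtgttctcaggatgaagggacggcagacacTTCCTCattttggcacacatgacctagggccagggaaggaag
Each holds 1 PU.1 match and no other. Neither stretch had any base in a peak in any tumor.

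Csf1r and Spi1 stand at the head of the lineage. Csf1r, which encodes the receptor that macrophages need to survive, was covered over 6.76%, 5.38%, 5.46% and 5.45% of its window, and the groups overlapped. No peak lay within 1 kb of the gene's 5′ end, at position 61100598 of chromosome 18. That end belongs to 1 of 6 annotated starts, and the other 5, between positions 61105572 and 61105879, had a peak within 1 kb in all 4 tumors. The region beside those starts, chr18:61105941-61107133, overlaps an exon and held 909, 1065, 904 and 307 bp. Control tumors were the wider, though control tumor 1 exceeded test tumor 1 by only a few bases. An intronic region farther in, chr18:61107846-61109080, held 1177, 540, 872 and 702 bp, with the groups overlapping. A region upstream of the gene, chr18:61088360-61090520, held 1876, 1445, 1680 and 1801 bp, again with overlap. The promoter of the next gene, Hmgxb3, gave 24.6% to 34.1% of the peak bases counted in the window.

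Spi1 lay in 10.3% and 10.8% peak bases in control tumors and in 9.93% and 6.18% in test tumors over its window, so test tumor 1 was just below the control pair and test tumor 2 far below. The difference was concentrated at the gene. Within 10 kb of the start the values were 32.8%, 27.6%, 23.8% and 6.45%, means of 30.2% ± 3.73 (SD, n = 2) in control and 15.1% ± 12.3 (SD, n = 2) in test tumors. The promoter region, chr2:91080574-91086440, held 5485, 4472, 2985 and 1044 bp. In control tumor 1 this was a single interval, wider than 98.5% of those of that tumor, into which 8 caller peaks had been merged. Control tumor 2 had 4 intervals from 7 caller peaks, test tumor 1 had 4 from 8 and test tumor 2 had 5 from 5, so the number of caller peaks was alike in the first 3 tumors and the covered length was not. In test tumor 2 the widest interval of the gene was 737 bp. A peak covered the start in the first 3 tumors and not in test tumor 2.

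Other Spi1 regions differed in both directions. A region inside the gene, chr2:91089320-91089802, held 226, 439, 211 and 0 bp, with control tumor 1 just above test tumor 1. An internal region, chr2:91096727-91098309, held 1411, 1281, 1082 and 737 bp. As joined it spans 1 of the 4 annotated starts, over which only control tumor 1 had a peak. A short region beside it, chr2:91096146-91096486, was control-only, with 189 and 341 bp. The region upstream of the gene, chr2:91068498-91071444, which is also the promoter of the zinc transporter gene Slc39a13, held 2445, 2715, 2847 and 1981 bp, and the groups overlapped. The region at the far end of the gene, chr2:91115245-91115720, was wider in both test tumors, with 330 and 348 bp in control and 442 and 440 bp in test tumors. The promoter of Psmc3, a proteasome gene in the same window, was also wider in test tumors, at 1771, 1873, 1881 and 2075 bp. The single test-only region of all the windows was in this one, at chr2:91157813-91158307 in the body of Madd, with 258 and 363 bp.

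**Figure D2:**
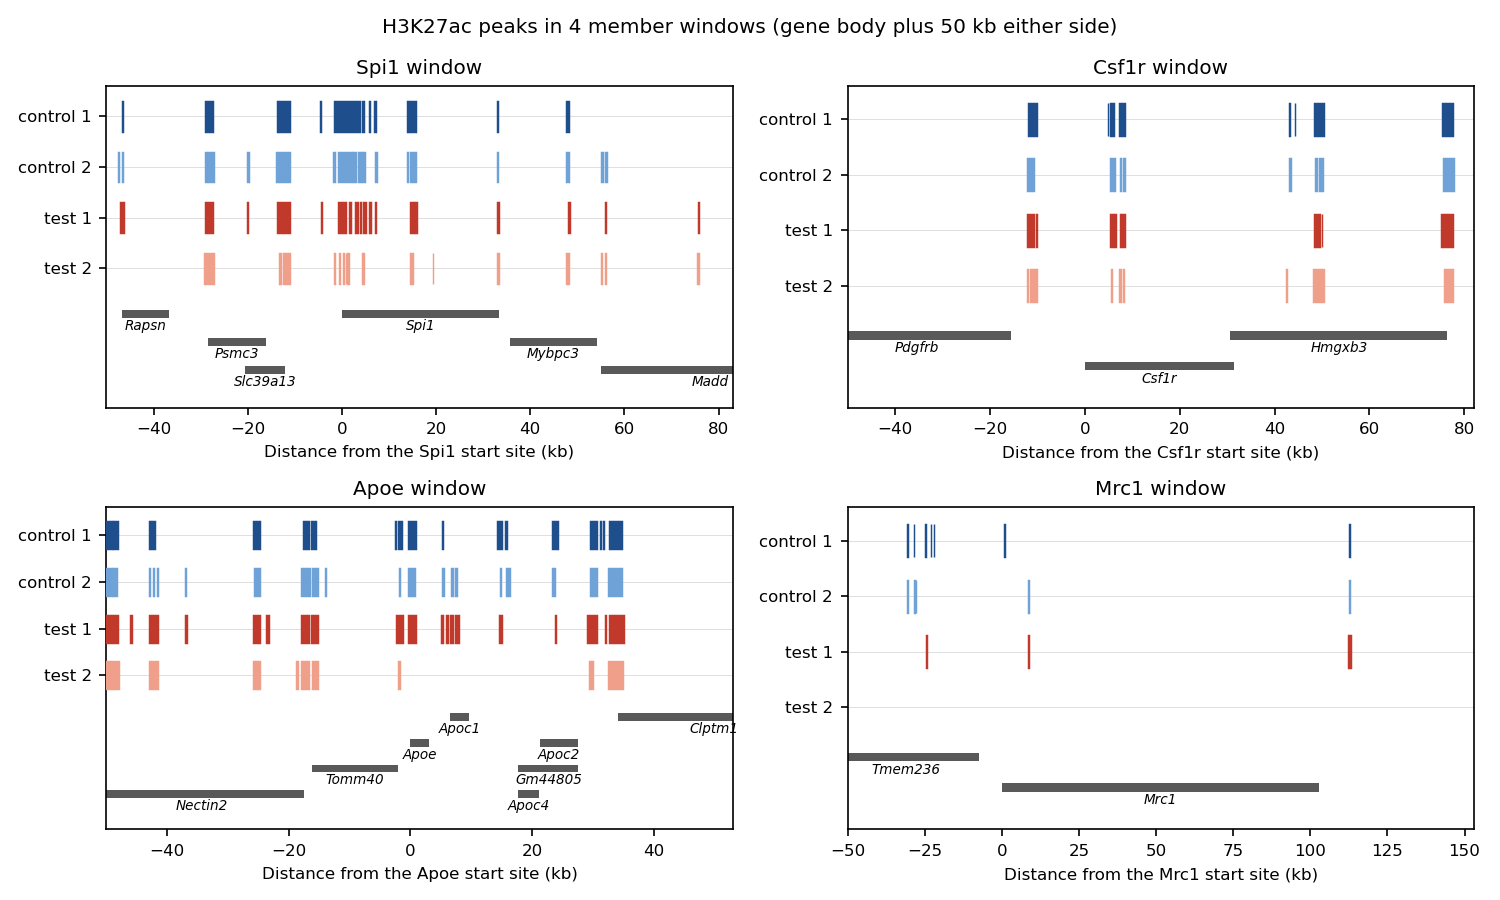
H3K27ac peaks of the 4 tumors (coloured blocks) in the windows of Spi1, Csf1r, Apoe and Mrc1, by distance in kb from each gene's start site, with the protein-coding genes of each window as grey bars. Blocks at the Spi1 start thin out from control tumor 1 to test tumor 2, the Apoe start has no block in test tumor 2, and the Mrc1 window has no block at all in that tumor.

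The 3 marker genes shared no pattern. Cd68, which encodes a lysosomal membrane glycoprotein abundant in macrophages, was covered over 95.8%, 100%, 100% and 98.4% of its short body. One region, chr11:69661333-69666984, held 5325, 5628, 5631 and 5217 bp and also covers the promoter of Mpdu1. Its window had 24.1%, 26.0%, 28.1% and 20.2% of bases in peaks, with test tumor 1 the highest and test tumor 2 the lowest. Cd68's own region gave 19.6% to 25.4% of these bases, and regions at promoters of other genes alone, such as Eif4a1, Senp3 and Tnfsf13, gave 53.3% to 61.5%. The 250 bases upstream of Cd68 (chr11:69666171-69666420, minus strand) had 143, 250, 250 and 0 bases in peaks.
Cd68: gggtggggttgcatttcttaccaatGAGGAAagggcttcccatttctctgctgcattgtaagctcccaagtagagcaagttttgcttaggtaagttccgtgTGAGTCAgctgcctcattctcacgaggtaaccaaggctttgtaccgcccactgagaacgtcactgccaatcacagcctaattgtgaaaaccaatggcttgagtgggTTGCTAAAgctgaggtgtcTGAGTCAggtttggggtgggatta
They hold 1 PU.1, 1 C/EBP and 2 AP-1 matches. In test tumor 2 this stretch was a gap between 2 peaks, one of them over the gene.

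Adgre1, which encodes the F4/80 antigen used to stain mouse macrophages, had no peak over its body or within 1 kb of any of its 5 annotated starts in any tumor. Its window of 224837 bp held 1 peak, of 363 bp in control tumor 1, upstream of the gene. The peak lists therefore hold no peak by which to compare the groups at this gene.

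Mrc1, which encodes the mannose receptor, was close to empty. Its window was covered over 0.67%, 0.68%, 0.57% and 0% of bases, or 1358, 1373, 1154 and 0 bp. No peak of any tumor exceeded 293 bp within the gene, and test tumor 2 had no peak in the whole window of 202666 bp. A peak near the start, chr2:14230242-14230534, was found in control tumor 1 only. A peak overlapping an exon, chr2:14237928-14238214, was found in control tumor 2 (244 bp) and test tumor 1 (187 bp). The promoter stretch before the gene (chr2:14229164-14229391, plus strand) had no base in a peak in any tumor.
Mrc1: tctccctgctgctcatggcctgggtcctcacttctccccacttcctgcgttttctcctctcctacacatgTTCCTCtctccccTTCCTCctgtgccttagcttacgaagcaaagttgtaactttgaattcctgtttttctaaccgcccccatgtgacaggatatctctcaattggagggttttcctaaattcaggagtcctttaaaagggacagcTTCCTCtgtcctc
It holds 3 PU.1 matches, the most of the promoters shown.

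Both control-only regions of the Mrc1 window lay upstream, in the body of the membrane protein gene Tmem236, and they are copies of one sequence. The first, chr2:14198611-14198899, held 157 and 249 bp in the control tumors. The second, chr2:14200816-14201110, held 177 and 295 bp. The central 300 bases of each (chr2:14198606-14198905 and chr2:14200814-14201113, GRCm38, plus strand) are shown because they share 233 bases, identical at 233 of 233 positions on opposite strands, in capitals.
first region: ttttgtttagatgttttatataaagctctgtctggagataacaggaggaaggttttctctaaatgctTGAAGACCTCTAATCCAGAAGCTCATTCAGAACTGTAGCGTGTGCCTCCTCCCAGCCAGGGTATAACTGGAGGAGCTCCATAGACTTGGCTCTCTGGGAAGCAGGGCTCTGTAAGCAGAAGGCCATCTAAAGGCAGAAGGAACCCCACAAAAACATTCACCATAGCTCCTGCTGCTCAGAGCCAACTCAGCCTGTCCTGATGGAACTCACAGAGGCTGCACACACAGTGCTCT
second region: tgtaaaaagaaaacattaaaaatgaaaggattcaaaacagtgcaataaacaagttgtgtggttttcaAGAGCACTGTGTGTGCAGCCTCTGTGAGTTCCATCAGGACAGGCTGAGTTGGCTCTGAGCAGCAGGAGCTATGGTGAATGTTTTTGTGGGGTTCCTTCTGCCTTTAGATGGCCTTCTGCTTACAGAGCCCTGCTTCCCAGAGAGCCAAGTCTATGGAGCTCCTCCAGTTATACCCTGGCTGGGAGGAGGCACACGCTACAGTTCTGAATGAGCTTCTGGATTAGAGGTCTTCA
Outside these 300 bases the identity runs on, and the exact inverted pair spans 753 bases per arm (chr2:14198272-14199024 and chr2:14200762-14201514). A read from inside one arm matches the other equally well, and how such reads were placed is not stated, so the pair counts as 1 signal at most. Control tumor 1 had 1 peak in each arm, control tumor 2 had 1 and 2, and both test tumors had none. With the pair left out, an alternative chosen after seeing the data, the Mrc1 window held 1024, 651, 1154 and 0 bp. Counted by its first arm alone it held 1181, 900, 1154 and 0 bp, and by its second arm alone 1201, 1124, 1154 and 0 bp. In each case control tumor 2 lay below test tumor 1, so the order of the window rests on counting both arms.

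Trem2 and Apoe both belong to the lipid-handling program and differed from each other. Trem2, which encodes a lipid-sensing receptor, had no peak over its body or within 1 kb of any of its 4 annotated starts in any tumor. Its window was covered over 0.14%, 0.25%, 1.52% and 0% of bases. All 5 regions of that window lay well downstream of the gene, with the start of Treml1 or Nfya the nearest, and all 5 were present in test tumor 1 and none in test tumor 2. The promoter stretch (chr17:48346151-48346400, plus strand) is shown as one without a peak.
Trem2: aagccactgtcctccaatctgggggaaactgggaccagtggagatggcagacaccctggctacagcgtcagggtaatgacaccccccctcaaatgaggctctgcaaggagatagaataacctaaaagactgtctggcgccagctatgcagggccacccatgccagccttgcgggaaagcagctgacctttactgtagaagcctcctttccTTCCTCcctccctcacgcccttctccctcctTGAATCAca
It holds 1 PU.1 and 1 AP-1 match, so letters of this kind were present where no tumor had a peak.

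Apoe, which encodes the carrier of lipids between cells, had a peak at its start in 3 of 4 tumors. The region chr7:19698276-19699618 held 1324, 871, 1273 and 0 bp. Test tumor 1 matched the control tumors and test tumor 2 had no peak within 1 kb of any of the 10 annotated starts. Within 10 kb of the start the values were 11.2%, 10.6%, 20.8% and 1.45%, so the test tumors lay on either side of the control tumors, and their SD was 13.7 percentage points (n = 2). The promoter stretch (chr7:19699189-19699438, minus strand) had 250, 111, 250 and 0 bases in peaks.
Apoe: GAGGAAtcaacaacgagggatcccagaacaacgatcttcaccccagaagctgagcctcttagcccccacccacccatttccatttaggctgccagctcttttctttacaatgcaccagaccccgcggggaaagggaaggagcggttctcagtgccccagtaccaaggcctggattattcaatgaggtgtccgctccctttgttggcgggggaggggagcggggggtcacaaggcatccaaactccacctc
It holds 1 PU.1 match.

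The rest of the Apoe window showed both directions. A region in the gene of the adhesion protein Nectin2, chr7:19740635-19742262, held 662 and 679 bp in control and 1404 and 1628 bp in test tumors. A region in the neighbouring lipoprotein gene Apoc2, chr7:19674971-19675918, held 948, 437, 177 and 0 bp. A region near Apoc4, chr7:19682857-19683552, was control-only, with 181 and 682 bp. Regions at the promoter of Apoc1, the closest lipoprotein gene, were found in control tumor 2 and test tumor 1 and in neither of the others, apart from 1 in test tumor 1 alone.

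The promoter stretches shown belong to 6 of the 10 genes, and each had at least 1 PU.1 match in the 250 bases or fewer before the gene. Of all 32851 promoter entries, 23.3% held one, against 9.56% for C/EBP, 6.75% for AP-1 and 4.4% for RUNX. These are letter matches in a short window and not binding sites.

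Across the 10 genes, window coverage was higher in both control tumors than in both test tumors for 5 (C1qa, C1qb, C1qc, Spi1 and Mrc1), which are 3 of the 8 loci, and in the reverse order for 0. With the inverted pair near Mrc1 left out or counted once, the number was 4 genes in 2 loci, without Mrc1. Of 18693 covered genes, 13.0% showed the control-higher order and 17.3% the test-higher order. Within 10 kb of the start the same 5 of 8 covered members were control-higher and 0 test-higher, beside 11.6% and 20.9% of 14792 genes. These counts describe genes chosen on this contrast, and with 2 tumors against 2 the smallest two-sided p of an exact permutation test is 0.333. The mean over the 8 loci was 7.92%, 7.66%, 8.23% and 5.49%, so it was test tumor 1, not a control tumor, that had the highest mean. Without test tumor 2 the mean difference changed from -0.93 to 0.44 percentage points. At the 3 C1q genes and Spi1, test tumor 1 also lay below both control tumors. Without test tumor 1, 8 genes were control-higher, and without control tumor 2, 7 were. With 1 tumor left out fewer tumors decide the order, so these counts cannot be set beside the 13.0% of all genes.

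**Figure D3:**
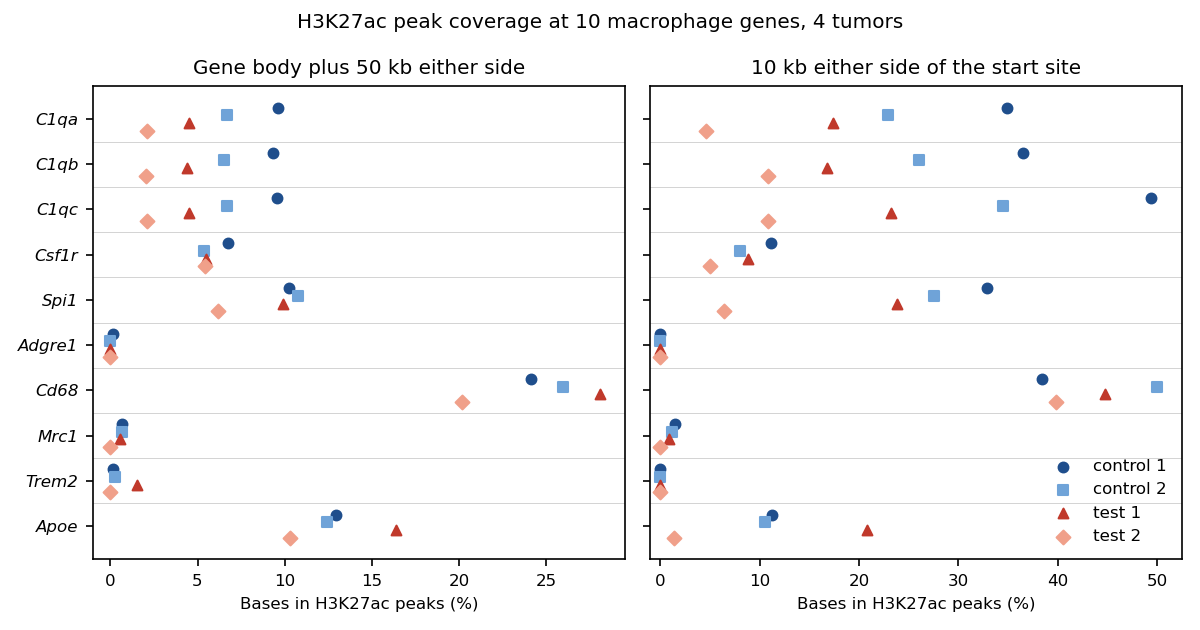
Percent of bases in H3K27ac peaks at each of the 10 genes, in the gene body plus 50 kb either side (left) and within 10 kb of the start site (right), 1 symbol per tumor. Blue control symbols lie to the right of both red test symbols for the 3 C1q genes, Spi1 and, near 0 and in the left panel only with both arms of the inverted pair counted, Mrc1, whereas Cd68, Csf1r and Apoe have overlapping groups.

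The size of the difference in percentage points set C1q and Spi1 apart from the other members. This size depends on the starting coverage, since a gene cannot fall by more points than its control mean. That mean was 41.9% at C1qc, 30.2% at Spi1, 9.6% at Csf1r and 1.34% at Mrc1, where the test mean was 0.47%. Of all genes covered within 10 kb of the start, 0.0406% had a lower difference than C1qc, which was -24.9 percentage points. The corresponding shares were 0.21% for C1qa (-17.9 points), 0.257% for C1qb (-17.5 points) and 0.392% for Spi1 (-15.1 points). Csf1r (-2.65 points), Cd68 (-1.87 points), Mrc1 (-0.88 points) and Apoe (0.21 points) lay within the bulk, with 12.0%, 16.2%, 25.7% and 48.2% of genes lower. Without test tumor 2 the difference was -18.7 points at C1qc, -11.4 at C1qa, -14.5 at C1qb and -6.36 at Spi1, with 0.0343%, 0.397%, 0.178% and 1.9% of genes lower, so at Spi1 and C1qa it was over 1.5 times smaller. Without control tumor 1 it was -17.4 points at C1qc, -11.9 at C1qa, -12.3 at C1qb and -12.4 at Spi1, with 0.375%, 1.14%, 1.04% and 1.01% of genes lower, so the C1qa difference was over 1.5 times smaller here too. Without test tumor 1 it was -23.8 points at Spi1. Apoe moved to 9.86 points without test tumor 2 and to -9.45 without test tumor 1, and Cd68 to -7.68 (3.02% of genes lower) without control tumor 1 and to 3.94 (92% lower) without control tumor 2. Csf1r ranged from -4.57 points without test tumor 1 and -4.24 without control tumor 2 to -1.06 without control tumor 1 and -0.74 without test tumor 2, and Mrc1 from -1.34 without test tumor 1 to -0.41 without test tumor 2. The C1q genes share peaks within these spans and are not 3 independent values.

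**Figure D4:**
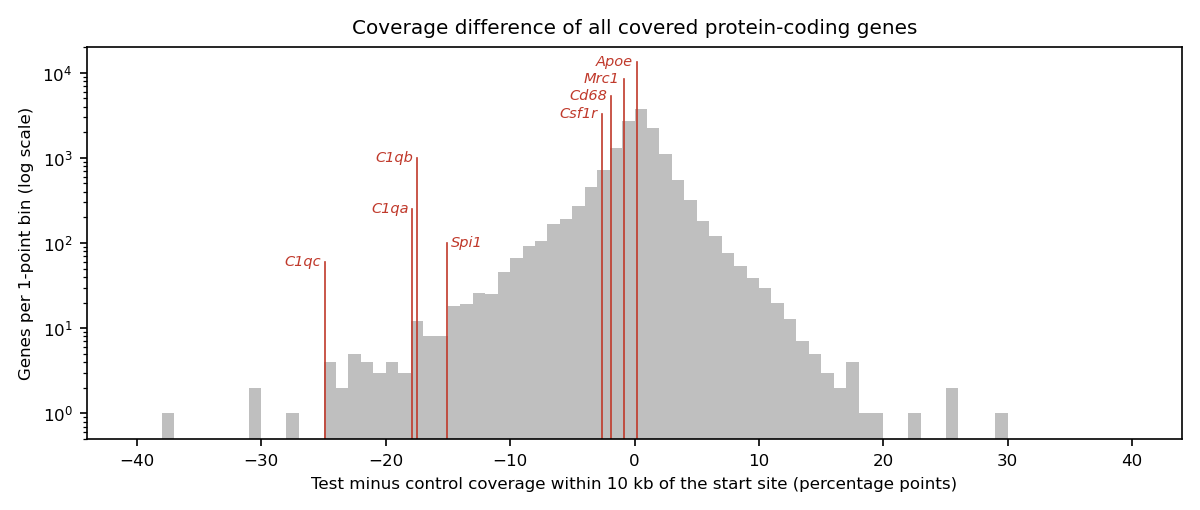
Number of covered protein-coding genes (log scale) by the difference in coverage within 10 kb of the start, test mean minus control mean, in percentage points. Red lines mark the 8 covered members, of which the 3 C1q genes and Spi1 lie in the left tail at -15.1 points or lower.

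A promoter peak, within 1 kb of the gene's 5′ end, was found at 7, 6, 6 and 4 of the 10 genes, and at 53.5%, 53.9%, 54.1% and 52.0% of all 21938 genes. No member had one in the 2 control tumors and none in the test tumors, an order seen for 0.933% of the 12546 genes with a promoter peak in any tumor, and none had the reverse, seen for 0.526%. Test tumor 2 lacked the promoter peaks of C1qa and Apoe that the other 3 tumors had. Counted over any annotated start the numbers were 8, 7, 7 and 5. Promoters of 42.8% of all genes had no peak in any tumor, as was the case for Adgre1, Trem2 and, at its 5′ end, Csf1r.

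The 8 loci held 96 joined regions, of which 31 were present in all 4 tumors (32.3%, against 38.1% genome-wide). There were 5 control-only regions (5.21%, against 3.41% of 91238 regions genome-wide) and 1 test-only region (1.04%, against 1.47%). Of the 5, only the short region in Spi1 lay in a member gene: 2 were the inverted pair in Tmem236, 1 was in Hmgxb3 (chr18:61143645-61144027, with 274 and 379 bp) and 1 was near Apoc4. With 1 tumor left out, control-only regions numbered 16 without control tumor 1, 20 without control tumor 2, 17 without test tumor 1 and 5 without test tumor 2, and test-only regions numbered 11 without test tumor 2. Fewer tumors then decide the call, so these numbers do not compare with the genome-wide shares above. Regions in every tumor but test tumor 2 numbered 12 (12.5%, against 6.38% genome-wide). Test tumor 2 had a peak in 38 of the 96 regions (39.6%), and the other tumors in 66, 64 and 65 (68.8%, 66.7% and 67.7%). Of all regions genome-wide the shares were 67.4%, 64.0%, 63.5% and 57.0%, so test tumor 2 had the lowest share there as well.

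Regions at the members and regions around them were counted separately. At a member's body or promoter lay 23 regions. Of these, 10 were in all tumors, with 6 control-wider, 1 test-wider and a median width ratio of 0.697. The 6 were 3 regions at C1q, 2 at Spi1 and 1 at Csf1r, the last with 909 bp in control tumor 1 against 904 bp in test tumor 1, so 5 of them lay at 2 of the 8 loci. Outside the members lay 73 regions. Of these, 21 were in all tumors, with 1 control-wider, 6 test-wider and a median ratio of 1.05. Genome-wide, 13.3% of shared regions were control-wider and 19.1% test-wider.

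A wider list of macrophage pathway genes leaned the same way. Of 58 genes listed, 57 were matched and 56 had a peak in their window. Coverage was control-higher at 20 (35.7%) and test-higher at 3 (5.36%), beside 13.0% and 17.3% of all covered genes, with a median difference of -0.56 points against 0.02 over the 18693 covered genes. The lists were made with earlier results of these tumors known, so the counts are not independent evidence of direction.

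Among lysosomal proteins, 6 of 9 genes were control-higher and 0 test-higher over windows, beside 13.0% and 17.3% of all covered genes. The protease genes Lgmn (19.3%, 13.1%, 10.6% and 7.33% of the window) and Ctsd (24.4%, 23.7%, 23.2% and 14.8%) and the leukocyte gene Laptm5 (5.31%, 4.26%, 2.78% and 0.82%) had the largest differences. Within 10 kb of the start, 4 of 9 were control-higher and 0 test-higher, beside 11.6% and 20.9% of all covered genes. There the groups overlapped at Ctsd (43.7%, 43.0%, 43.1% and 24.9%) but not at Lgmn or Laptm5.

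Of the myeloid transcription factors, 4 of 10 were control-higher and 1 test-higher over windows, beside 13.0% and 17.3% of all covered genes. Irf8, a regulator of monocyte development, was covered over 3.03%, 1.28%, 0.67% and 0.20%, and Irf5, a factor in inflammatory responses, over 4.29%, 4.17%, 2.57% and 0.68%. Cebpb, which acts in many cell types, was covered over 47.1%, 46.4%, 44.4% and 40.6% of its window, but within 10 kb of its start the order was test-higher, at 65.3%, 66.9%, 68.1% and 67.5%.

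Of the partners of TREM2 and lipid genes, 3 of 10 were control-higher and 0 test-higher over windows, beside 13.0% and 17.3% of all covered genes. Tyrobp, the adaptor through which TREM2 signals, was covered over 7.50%, 5.89%, 4.17% and 3.21%, and the kinase gene Syk over 4.71%, 3.67%, 2.35% and 0.93%. The groups did not overlap at either gene. Lpl, which encodes lipoprotein lipase, had peaks in the control tumors only, at 0.19% and 0.60% of its window.

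Of the ligands of CSF1R, Il34 was covered over 21.8%, 18.02%, 17.2% and 13.2% of its window and had a promoter peak in the control tumors alone, whereas Csf1 was covered over 9.19%, 9.67%, 13.2% and 8.43%, with overlapping groups. Of the phagocytic receptors, 5 of 12 covered genes were control-higher and 1 test-higher over windows, beside 13.0% and 17.3% of all covered genes. Within 10 kb of the start, 3 of 11 covered genes of the list were control-higher and 1 test-higher, beside 11.6% and 20.9%. Fcer1g, a signaling chain of Fc receptors, was covered over 16.44%, 17.7%, 16.42% and 11.9% of its window, and its groups overlapped within 10 kb of the start (13.4%, 16.3%, 15.3% and 6.77%). Stab1, a scavenger receptor gene, was covered over 9.15%, 10.2%, 8.83% and 5.09%. Itgam, which encodes CD11b, was covered over 2.72%, 1.98%, 0.73% and 0.24%, and its promoter had a peak in the control tumors alone.

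The other complement genes and the activation markers differed between the measures. Of 7 complement components and receptors, 1 was control-higher, the receptor gene C3ar1, at 9.258%, 9.26%, 9.11% and 7.38%, with test tumor 1 just below the control tumors. Of 6 activation markers, 0 were control-higher and 1 was test-higher, the folate receptor gene Folr2, at 13.7%, 13.5%, 18.6% and 13.97%. Of all covered genes, 13.0% were control-higher and 17.3% test-higher over windows, so neither count stands apart from all genes. At Folr2 the margin between control tumor 1 and test tumor 2 was small, and within 10 kb of the start the groups overlapped (25.6%, 24.7%, 40.8% and 21.5%). Within 10 kb of the start, 2 of 6 covered complement genes were control-higher and 1 test-higher, beside 11.6% and 20.9% of all covered genes. Their median difference was -1.96 points, and a promoter peak was found at 6, 4, 4 and 2 of the 7 genes. Of 3 covered activation markers, 1 was control-higher there and 0 test-higher, the nitric oxide synthase gene Nos2, at 2.37%, 1.99%, 0% and 1.24%.

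Markers of other cell types moved with the macrophage genes in part. Pan-leukocyte genes such as Ptprc had a mean coverage within 10 kb of the start of 12.8%, 12.7%, 9.93% and 5.01%, with 4 of 6 control-higher and 1 test-higher, beside 11.6% and 20.9% of all covered genes. Endothelial markers were at 2.68%, 2.74%, 1.10% and 0.69% (3 of 5 covered genes control-higher), and fibroblast markers at 5.25%, 3.24%, 3.14% and 0.91% (2 of 7 covered genes control-higher). Neutrophil markers were at 1.25%, 2.20%, 0.86% and 0.30% (1 of 3 covered genes control-higher). Dendritic cell markers were at 1.18%, 0.58%, 0.72% and 0.55% (0 of 3 covered genes control-higher). T cell markers were at 0.96%, 1.84%, 0.92% and 0.45% (2 of 9 covered genes control-higher and 1 test-higher). These 3 lists were thus thinly covered in every tumor. Mast cell and eosinophil markers had no peak within 10 kb in any tumor. Adipocyte markers were at 2.49%, 2.61%, 3.47% and 2.48%.

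Luminal epithelial markers, which stand for the tumor cells, were at 42.5%, 40.8%, 43.0% and 40.5%, with the groups overlapping and with a promoter peak at 11, 10, 11 and 10 of 11 genes. B cell markers were at 5.68%, 5.04%, 5.80% and 5.51%, all of it from the span around Cd79a, since the other 4 genes had no peak within 10 kb and no B cell marker had a promoter peak. Mean coverage within 10 kb of the start was thus lower in both test tumors for pan-leukocyte, endothelial, fibroblast, neutrophil and T cell markers, the last and the fibroblast markers by a narrow margin in test tumor 1, and not for epithelial markers. Over windows, 4 of 10 T cell markers were test-higher and 1 control-higher, beside 17.3% and 13.0% of all covered genes. Their means overlapped at 8.14%, 7.58%, 8.99% and 7.41%, and fibroblast means overlapped at 4.28%, 3.36%, 3.93% and 2.76%. Window means of pan-leukocyte (7.62%, 7.55%, 6.89% and 4.40%), neutrophil (0.60%, 1.08%, 0.55% and 0.53%) and endothelial markers (3.87%, 3.67%, 3.453% and 3.445%) were lower in both test tumors as well. What part this had in the C1q and Spi1 values was not tested.

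**Figure D5:**
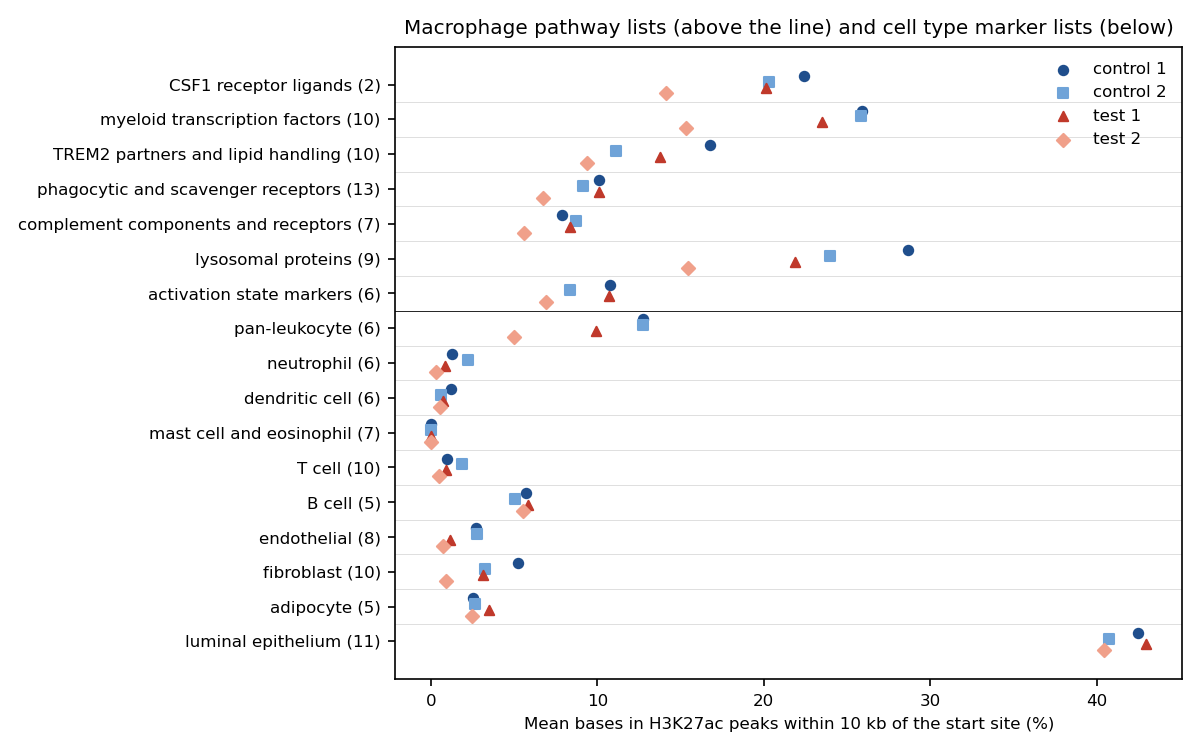
Mean percent of bases in H3K27ac peaks within 10 kb of the start for 7 macrophage pathway lists (above the line) and 10 cell type marker lists (below it), 1 symbol per tumor, with the number of genes in parentheses. Pan-leukocyte, endothelial and fibroblast means are lower in both test tumors, and luminal epithelial means lie between 40.5% and 43.0% in all 4.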

How the data were processed

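H3K27ac ChIP-seq was done by the study on 10 to 30 mg of bulk tumor. According to its methods, the authors aligned reads to mm10 with BWA (also named in the submitters' processing notes), extended them to 200 bp and called peaks with MACS2 per tumor against its matched input at a q-value of 0.01. The deposited lists hold chromosome, start, end and peak names, with no score, signal or count, and neighbouring intervals had been merged. The matched inputs were not analysed here. Depth is unknown, so no counting error can be given.

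From the lists, the percent of bases in peaks was computed per tumor for the gene body plus 50 kb, for 10 kb around the start and for promoters (1 kb either side), with GENCODE M21 on GRCm38. Overlapping or adjoining peaks of any tumor were joined into regions, and 1 bp of overlap counted as present. Groups were taken from the genotype labels. Because the members and gene lists were chosen with earlier results of these data known, differences were described by values and by whether the groups overlap, beside the same for all genes, with no test. Named pathway genes are up to 3 per list with the largest difference among those whose groups do not overlap, and Csf1, Nos2, Ptprc and Cd79a were named after their values were seen. Clec7a was not matched as protein-coding. Promoter sequences came from RefSeq (GRCm38.p6), with entries used for Mrc1, C1qb, C1qc, Apoe, Cd68 and Trem2. Interval arithmetic was tested on simulated data. Python with numpy and pandas was used.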

Additional observations from a re-analysis of the deposited data

How the results depend on the processing

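The mean difference over the 8 loci (test minus control, -0.93 percentage points) was -2.74 with a flank of 10 kb and -11.9 over gene bodies alone, -0.26 with a flank of 100 kb and -0.40 with peaks at least 1 kb wide, and leaving out 1 tumor gave -2.30 to 0.44, the sign changing without test tumor 2. The number of control-higher genes was 4 or 5 under every other setting tried, 4 with the inverted pair left out or counted once, and 5 to 8 when 1 tumor was left out, with 8 without test tumor 1. Fewer tumors decide a call when 1 is left out, so such counts of genes or regions are not comparable with the others. The 5 control-only regions became 1 with peaks at least 1 kb wide, 2 with peak numbers made equal by keeping the widest, 3 with peaks within 1 kb joined, 1 with a flank of 10 kb, over gene bodies, or for peaks nearest to a member, and 3 with the inverted pair near Mrc1 left out. Without 1 tumor they numbered 5 to 20. The 1 test-only region became 2 with peaks at least 1 kb wide, with a flank of 100 kb or when 50% of a region had to be covered, and 0 with a flank of 10 kb, over gene bodies, or for peaks nearest to a member. Without 1 tumor they numbered 2 to 11. The difference in Mrc1 window coverage turned from -0.39 to 0.00897 with a flank of 10 kb, where it rests on short peaks. The promoter difference of -1.5 genes kept its sign, from -2.5 to -0.5. Each C1q gene kept a negative difference under all 14 alternatives. Among these, the settings of the inverted pair, on another chromosome, could not change it. Keeping only peaks nearest to a member left it as it was. No paired analysis was possible because the labels give the tumors no replicate numbers, and those used here follow the order of the samples. Depth, unknown here, limits every width.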
